A study of Mus musculus with 20 samples.

Results

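The 8 genes described here, Igh-6, Cd79a, Cd79b, Ms4a1, Cd3e, Cd3g, Ltb and Glycam1, mark lymphocytes and the vessels that admit them to lymph nodes. They are 8 of the 27962 gene names on the array. Igh-6 and Glycam1 were chosen on their levels in an earlier reading of these arrays, which compared BPA at 24 h with vehicle. The other 6 were added as markers of the same cells, with earlier results of these data known. Each gene was read through its brightest probe over the 20 arrays, and all 8 chosen probes were among the 32456 of 41174 probes that were tested. Glycam1 was admitted to the test only through BPA 24 h, a group it was chosen on, so its p-values are not used as support. The levels of the BPA 24 h group are therefore given as a description, with no test.

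RNA came from whole uteri of adult C57bl6/J females, at least 10 weeks old, which had all been ovariectomized and rested for 10 to 14 days. Estradiol (E2, 250 ng), bisphenol A (BPA, 750 µg) or HPTE (750 µg, a metabolite of the insecticide methoxychlor), each in sesame oil, was injected subcutaneously. Controls received 100 µl sesame oil, and their 3 arrays, named as 24 h samples, served as vehicle for both times. Uteri were taken at 2 h or 24 h, with 3 arrays in each treated group except E2 at 24 h, which had 2 (replicates 2 and 3). Each array held the RNA of 1 uterus, so the tissue contains every uterine cell type. The 12 uterine marker genes read, among them Esr1, Hoxa10 and Krt18, were well above background on all 20 arrays. In bulk RNA, fewer cells of a type, less RNA per cell and more RNA from other cells cannot be told apart.

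B cells recognise antigen with a receptor built from an immunoglobulin heavy chain and a light chain, which signals through the CD79A and CD79B chains. Igh-6 (current symbol Ighm) encodes the mu heavy chain of IgM, and Ms4a1 encodes CD20, a membrane protein of mature B cells. T cells recognise antigen with a receptor that signals through the CD3 chains, of which Cd3e and Cd3g encode epsilon and gamma. Ltb encodes lymphotoxin beta, a membrane-anchored cytokine of lymphocytes that pairs with lymphotoxin alpha and is needed to form lymph nodes. Glycam1 encodes a mucin made by the high endothelial venules of lymph nodes, where it carries sugars that lymphocytes bind, and also by lactating mammary gland. Estrogen is known to recruit some leukocytes to the rodent uterus and to reduce others.

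The array probes of 4 members are shown because what they can read bears on the results. Positions are on the mouse assembly mm7, as the array files give them, and sequences run 5′ to 3′ in lower case because no base was singled out. The Igh-6 sequence is its second probe, at chr12:110942769-110942828 on the minus strand. The Cd79a probe lies at chr7:21688822-21689079 on the plus strand, and the Cd3g probe at chr9:44907978-44908562 on the minus strand. The 60 bases of those last 2 probes cover 258 and 585 genomic bases, so each crosses a gap and reads joined sequence. The Glycam1 probe lies at chr15:103551726-103551785 on the minus strand.
Igh-6: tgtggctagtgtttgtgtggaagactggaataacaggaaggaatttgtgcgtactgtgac
Cd79a: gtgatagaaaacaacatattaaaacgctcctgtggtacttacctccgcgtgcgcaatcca
Cd3g: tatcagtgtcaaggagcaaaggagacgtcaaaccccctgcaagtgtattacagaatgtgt
Glycam1: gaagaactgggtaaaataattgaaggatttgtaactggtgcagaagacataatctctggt

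Levels are given as the log2 intensity of the probe minus the log2 of the 75th percentile of intensity on the same array, so a level of 0 is the level of that percentile. The 75th percentile ranged from 1319.8 to 2046.4 intensity units, and 72.7% to 81.4% of probes on an array were well above background. Arrays of a group correlated at a Pearson r of 0.975 to 0.993 over the tested probes. There were 6 slides, read on 2 scan days. Probes differ in how brightly they report their RNA, so a level does not rank genes by abundance. Adjusted p-values come from limma over all tested probes.

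**Figure D1:**
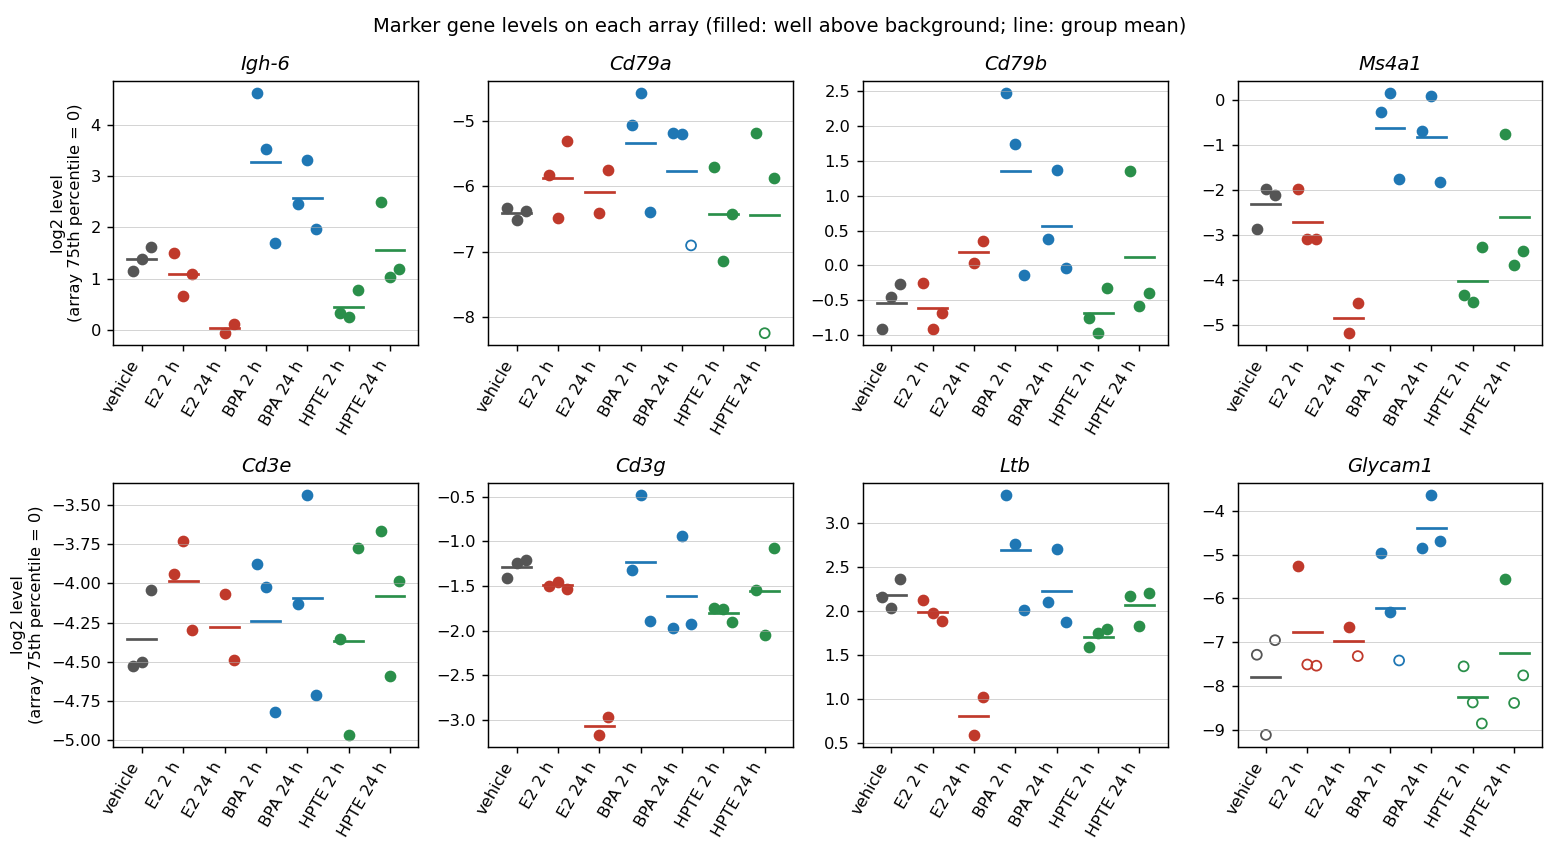
Log2 level of each of the 8 genes (y axis, 0 is the array's 75th percentile) on every array of the 7 groups (x axis). Points are arrays in replicate order, filled where the probe was well above background, and lines are group means. Cd3g and Ltb were lowest on both E2 24 h arrays, at -3.17 and -2.97 and at 0.60 and 1.02, while the B cell genes spread widely within the BPA and HPTE 24 h groups.

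The B cell genes were highest in uteri given BPA, but the arrays of a group differed widely. Igh-6 levels after BPA for 2 h were 4.61, 3.52 and 1.70, against 1.15, 1.39 and 1.62 in vehicle. The lowest BPA array lay just above the highest vehicle array. The log2 difference was 1.89 ± 0.57 (SE, limma, adjusted p = 0.0121), a 3.71-fold higher mean. The vehicle arrays in this comparison also took part in the one through which Igh-6 was chosen. Cd79b, encoding the partner of CD79A, was 2.48, 1.74 and -0.14 after BPA for 2 h and -0.91, -0.46 and -0.26 in vehicle. Its difference was 1.90 ± 0.59 (limma, adjusted p = 0.0144), again with no overlap and again with replicate 3 close to vehicle. Cd79b followed Igh-6 over the 20 arrays (r = 0.84), so the Cd79b call is not independent of the choice of Igh-6.

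Igh-6 and Cd79b were the 2 members of 8 that passed the test for BPA at 2 h against vehicle, both higher, where 19.3% of all tested probes were called higher. Against that background the count of members is not a result about these genes as a set. Ms4a1 was -0.28, 0.14 and -1.76 after BPA for 2 h and -2.87, -1.98 and -2.11 in vehicle, a difference of 1.68 ± 0.71 that did not pass (limma, adjusted p = 0.062). Cd79a was -5.07, -4.58 and -6.39 against -6.34, -6.52 and -6.37 (difference 1.06 ± 0.70, adjusted p = 0.224). Replicate 3 was the lowest BPA 2 h array for all 8 members. Without replicate 1 neither call remained, with differences of 1.23 for Igh-6 (adjusted p = 0.0734) and 1.34 for Cd79b (adjusted p = 0.0838). Without replicate 2, or without vehicle replicate 1, the Cd79b call was lost as well (adjusted p = 0.0542 and 0.0528). Where only these 2 groups were fitted, both calls were lost (adjusted p = 0.0816 for Igh-6 and 0.0675 for Cd79b).

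The same 2 genes were higher after BPA than after E2 at 2 h, by 2.19 ± 0.57 for Igh-6 (limma, adjusted p = 0.0158) and 1.98 ± 0.59 for Cd79b (adjusted p = 0.0298), where 7.92% of tested probes were called higher. The Cd79b call was lost on leaving out any E2 2 h array or BPA 2 h replicate 1 or 2, and the Igh-6 call without E2 2 h replicate 2 or BPA 2 h replicate 1 or 2. Igh-6 on the E2 2 h arrays was 1.51, 0.67 and 1.10. HPTE at 2 h left Igh-6 at 0.33, 0.25 and 0.77, below every BPA 2 h array. This difference of -2.83 ± 0.57 passed narrowly (limma, adjusted p = 0.0452), 1 member of 8, where 0.197% of tested probes were called lower. It missed the threshold in 24 of 31 other fits, among them 17 of the 20 that left out an array (adjusted p = 0.195 without HPTE 2 h replicate 2). The 3 that kept it left out vehicle replicate 1, BPA 2 h replicate 3 or HPTE 24 h replicate 1. Ms4a1 showed the wider gap, at -4.35, -4.49 and -3.28 after HPTE, a difference from BPA of -3.40 ± 0.71 that did not pass (adjusted p = 0.0519).

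The BPA values were also read within slides, and each BPA 2 h array lay on a different slide. On slide 3, which held BPA 2 h replicate 1 and vehicle replicate 2, Igh-6 differed by 3.23 and Cd79b by 2.93. On slide 1, which held BPA 2 h replicate 3 and vehicle replicate 1, the same differences were 0.55 and 0.77. Both kept the direction. With slide as a block the fitted differences were 1.88 for Igh-6 (limma, adjusted p = 0.0102) and 1.85 for Cd79b (adjusted p = 0.0120).

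At 24 h, Ms4a1 was the B cell member that passed a test against vehicle, in the E2 group. BPA 24 h arrays, given with no test, held Igh-6 at 2.45, 3.30 and 1.97 and Ms4a1 at -0.70, 0.07 and -1.83. Cd79b was 0.38, 1.37 and -0.04 there, and Cd79a was -5.18, -5.21 and -6.90, the last not well above background. E2 at 24 h showed Ms4a1 at its lowest, -5.18 and -4.52, below every array of the other 6 groups. Against vehicle it fell by 2.53 ± 0.80 on the log2 scale (limma, adjusted p = 0.0114), a 5.79-fold lower mean. Igh-6 was -0.06 and 0.12 on the same arrays, also below every other array, and its difference of -1.35 ± 0.63 missed the threshold (adjusted p = 0.075). Cd79b, at 0.03 and 0.35, lay above all 3 vehicle arrays (difference 0.74 ± 0.66, adjusted p = 0.351), and Cd79a was -6.41 and -5.75 (difference 0.33 ± 0.78, adjusted p = 0.740). The Cd79a values lie near the limit of detection, so they do not show a lack of change.

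After HPTE for 24 h, replicate 1 stood apart. Igh-6 was 2.49, 1.03 and 1.19, Cd79b was 1.35, -0.58 and -0.40, and Ms4a1 was -0.77, -3.67 and -3.35. The high replicate lay above every vehicle array for all 3 genes, and the other 2 lay within or below the vehicle range for each of them. No member passed the test against vehicle in HPTE 24 h (limma, 34% of tested probes called in either direction), HPTE 2 h (48.1%) or E2 2 h (28.1%). Without adjustment 1 of these 24 values fell below the threshold of 0.05, Ms4a1 in HPTE 2 h (difference -1.72, limma, adjusted p = 0.0587). With slide as a block Ms4a1 passed in HPTE 2 h (-1.74, limma, adjusted p = 0.0289), as it did with scan day as a block (adjusted p = 0.0338). By limma no member passed between HPTE 24 h and HPTE 2 h (54.1%) or between HPTE 2 h and E2 2 h (16.6%), with 0 of 16 values below 0.05 without adjustment. With scan day as a block Ms4a1 passed between HPTE 24 h and HPTE 2 h (1.96, limma, adjusted p = 0.0220).

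The array held 3 Igh-6 probes, and they did not read alike. The brightest starts 2769 bases from the probe shown above, in the direction of transcription, and the third lies 866871 bases away on the other side. The mu gene is known to give membrane and secreted forms that differ at the 3′ end, and which form the first 2 probes read was not determined. The third probe lies on the 5′ side, so it does not read that 3′ end. What it reads was not determined, and its values are not taken as a second reading of the mu RNA. The second probe, printed at 10 spots, reached 4.84, 5.69 and 1.71 after BPA for 2 h and -1.09, -1.21 and 0.46 in vehicle. Its E2 24 h values were -2.36 and -2.19, and its HPTE 24 h values 4.0, 0.80 and -0.46. The order of arrays within these groups was that of the first probe except between BPA replicates 1 and 2, between vehicle replicates 1 and 2, and between HPTE replicates 2 and 3. The third probe was -1.11 on HPTE 2 h replicate 3, its highest array, and -6.10 on replicate 1 of the same group. The first probe was highest on BPA 2 h replicate 1 and the second on BPA 2 h replicate 2.

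The clearest tested differences in the set were those of the T cell gene Cd3g and of Ltb after E2 for 24 h. Cd3g was -3.17 and -2.97 on the E2 24 h arrays and -1.42, -1.24 and -1.21 in vehicle. No array of any other group was below -2.05. The difference was -1.78 ± 0.36 (limma, adjusted p = 0.000451), a 3.43-fold lower mean. Ltb was 0.60 and 1.02 after E2 for 24 h and 2.16, 2.04 and 2.37 in vehicle, and no other array was below 1.59. It fell by 1.38 ± 0.30 on the log2 scale (limma, adjusted p = 0.000789), a 2.60-fold lower mean.

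Cd3g, Ltb and Ms4a1 were the 3 members of 8 called lower in E2 24 h against vehicle, where 37.6% of all tested probes were called lower. The median of all tested probes differed by -0.15 in this contrast, and the median of the 8 members by -0.64. The count of 3 is thus no more than the share among all probes. The same 3 genes were lower at 24 h than at 2 h after E2, by -1.57 ± 0.36 for Cd3g, -1.19 ± 0.30 for Ltb and -2.13 ± 0.80 for Ms4a1 (limma, adjusted p = 0.00150, 0.00298 and 0.0330), where 30.1% of probes were called lower. They were higher after HPTE than after E2 at 24 h, by 1.51 ± 0.36, 1.26 ± 0.30 and 2.26 ± 0.80 (limma, adjusted p = 0.00251, 0.00242 and 0.0283), where 27.3% were called higher. These comparisons share the E2 24 h arrays. The Cd3g and Ltb calls in these 3 comparisons held in all 31 alternative fits of each. The Ms4a1 difference from vehicle lost its call without E2 24 h replicate 2 (-2.20, adjusted p = 0.0841) and with normexp background correction (-1.26, adjusted p = 0.0828). Its difference between 24 h and 2 h lost the call without E2 2 h replicate 1 or either E2 24 h array, and that between HPTE and E2 without HPTE 24 h replicate 1 or either E2 24 h array (1.34 without HPTE 24 h replicate 1, adjusted p = 0.121). By the interaction term, the change from 2 h to 24 h was more positive after HPTE than after E2 for 4 of 8 members, where 25.4% of tested probes were called higher: Cd3g (1.82 ± 0.48), Ltb (1.54 ± 0.40), Ms4a1 (3.57 ± 1.07) and Igh-6 (2.18 ± 0.85). The Cd3g and Ltb values passed in all 30 other fits of this term and the Ms4a1 value in 28, while Igh-6 passed in 10.

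Within slides the direction was kept, and Ms4a1 varied most in size. On slide 5, with E2 24 h replicate 3 and vehicle replicate 3, Cd3g differed by -1.76, Ltb by -1.35 and Ms4a1 by -2.41. With slide as a block the differences were -1.67 for Cd3g, -1.34 for Ltb and -3.01 for Ms4a1 (limma, adjusted p = 0.00402, 0.00445 and 0.00325). Between E2 24 h and E2 2 h on slide 2, Cd3g differed by -1.67, Ltb by -1.54 and Ms4a1 by -3.19. Between HPTE 24 h and E2 24 h, Ms4a1 differed by 4.41 on slide 2 and 1.17 on slide 5, Cd3g by 1.62 and 1.89, and Ltb by 1.58 and 1.18.

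Cd3e, the other CD3 gene among the 8 members, showed no such pattern. It was -4.07 and -4.49 on the E2 24 h arrays and -4.53, -4.50 and -4.04 in vehicle, a difference of 0.08 ± 0.41 (limma, adjusted p = 0.879). Its 7 group means ran from -4.37 to -3.99, and every neighbouring pair in that order overlapped. The chosen Cd3e probe was well above background on all 20 arrays, while the other Cd3e probe was so on 6. The chosen probe was nevertheless dim, with a mean log2 intensity of 6.51 against 9.05 for Cd3g. Cd3d and Cd247, which encode further chains of the complex, are given with the lists below.

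**Figure D2:**
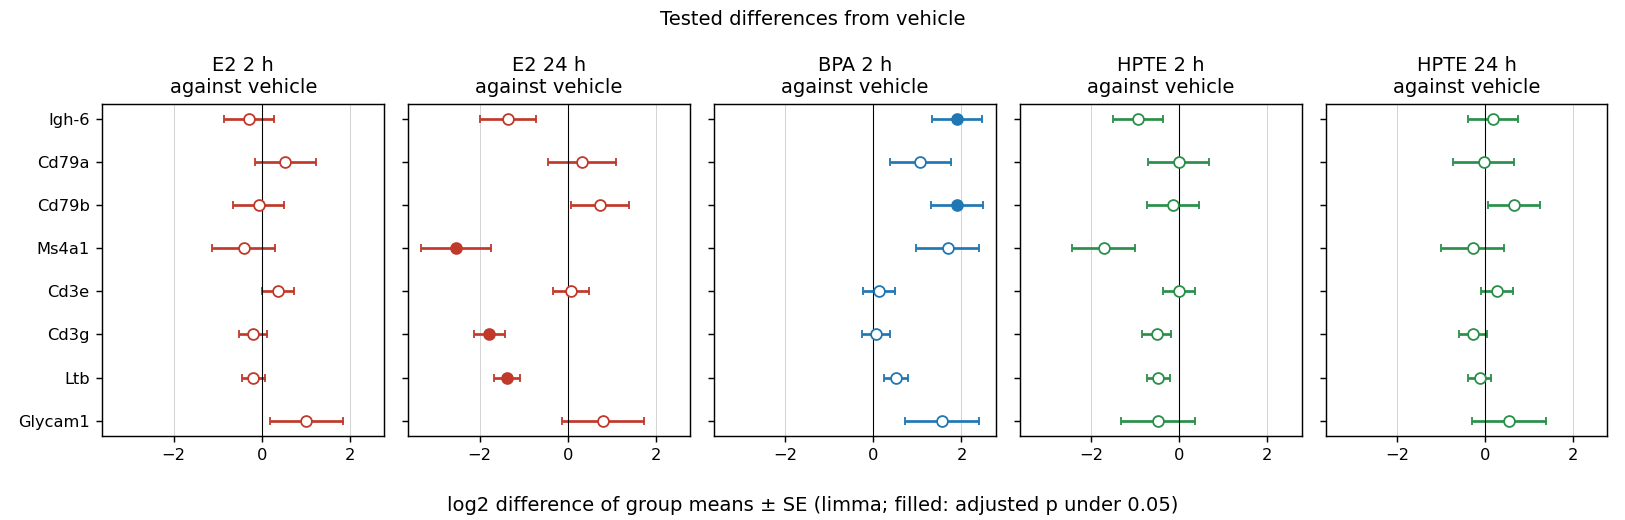
Log2 difference of each gene's group mean from vehicle (x axis) with its SE from limma, for the 5 treated groups that were tested. Filled points passed an adjusted p under 0.05: Ms4a1, Cd3g and Ltb for E2 24 h and Igh-6 and Cd79b for BPA 2 h. Glycam1 was not well above background in vehicle, so its differences there are not measured levels on both sides.

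Ltb and Cd3g fell together after E2 for 24 h, and the 250 bases upstream of their starts are shown with the motifs found in them. They come from RefSeq on GRCm38.p6, which held such a window for 5 of the 8 members. The search covered both strands for the palindromic estrogen response element, the NF-kB motif, the ETS motif AGGAAG and the E-box CAGGTG. These occur in 0.0639%, 17.6%, 29.5% and 17.2% of 32841 such windows. Capitals mark matches, and none of those shown overlap. The Ltb window, chr17:35194257-35194506 on the plus strand, held 1 NF-kB, 2 ETS and 1 E-box match. The Cd3g window, chr9:44980432-44980681 on the minus strand, held 2 E-box matches. The estrogen response element was found in none of the 5 windows. A match is a run of letters and does not show a bound site.
Ltb: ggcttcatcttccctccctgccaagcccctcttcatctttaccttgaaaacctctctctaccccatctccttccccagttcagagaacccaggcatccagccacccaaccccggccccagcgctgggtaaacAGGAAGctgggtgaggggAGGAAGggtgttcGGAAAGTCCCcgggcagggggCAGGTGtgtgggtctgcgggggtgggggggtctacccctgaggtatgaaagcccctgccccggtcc
Cd3g: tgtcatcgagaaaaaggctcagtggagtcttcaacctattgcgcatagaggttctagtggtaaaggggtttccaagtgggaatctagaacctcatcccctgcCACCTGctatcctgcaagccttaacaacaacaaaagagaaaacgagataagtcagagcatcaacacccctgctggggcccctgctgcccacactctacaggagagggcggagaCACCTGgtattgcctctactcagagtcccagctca

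Glycam1 was at the limit of detection in most uteri. Its probe was well above background on 8 of 20 arrays: all 3 of BPA 24 h, replicates 1 and 2 of BPA 2 h, and 1 array each of E2 2 h, E2 24 h and HPTE 24 h. The BPA 24 h arrays read -4.85, -3.63 and -4.69, above the highest array of any other group, -4.97 (BPA 2 h replicate 1). Vehicle arrays read -7.29, -9.12 and -6.96, none well above background, so the BPA 24 h mean was at least 5.83-fold higher. BPA for 2 h gave -4.97, -6.31 and -7.42, the last not well above background. The BPA 2 h mean as read was 1.63-fold above the limit of detection of the vehicle arrays (limma on levels as read, adjusted p = 0.136). HPTE for 2 h gave -7.56, -8.38 and -8.86, none well above background. The BPA 2 h mean as read was 2.02-fold above the limit of those arrays (limma on levels as read, adjusted p = 0.240). Neither fold is a strict lower bound, because BPA 2 h replicate 3 was itself not well above background. Glycam1 entered these tests only through BPA 24 h. On E2 2 h replicate 1 it read -5.27 and on HPTE 24 h replicate 1 -5.57, with the other arrays of those groups not well above background.

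The arrays where Glycam1 was detected were mostly those where the lymphocyte genes were high. Ranked by the mean deviation of the other 7 members from their 20-array means, the top 6 arrays all had Glycam1 above background. Igh-6, among those 7, and Glycam1 were both chosen on BPA 24 h against vehicle. Agreement on the arrays of those groups was therefore set in part by the choice of genes. The deviations were 1.51 and 1.40 on replicates 1 and 2 of BPA 2 h, 1.23 and 0.52 on replicates 2 and 1 of BPA 24 h, 0.80 on the first of HPTE 24 h and 0.12 on the first of E2 2 h. The other arrays with Glycam1 were BPA 24 h replicate 3 (-0.12) and E2 24 h replicate 2, where the 7 genes were lowest of all (-1.08). Glycam1 is also a milk gene, and the casein genes Csn1s1, Csn1s2a, Csn2 and Csn3 were well above background on 0 of 20 arrays, while the milk genes Wap and Lalba were so on 17 and 20.

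**Figure D3:**
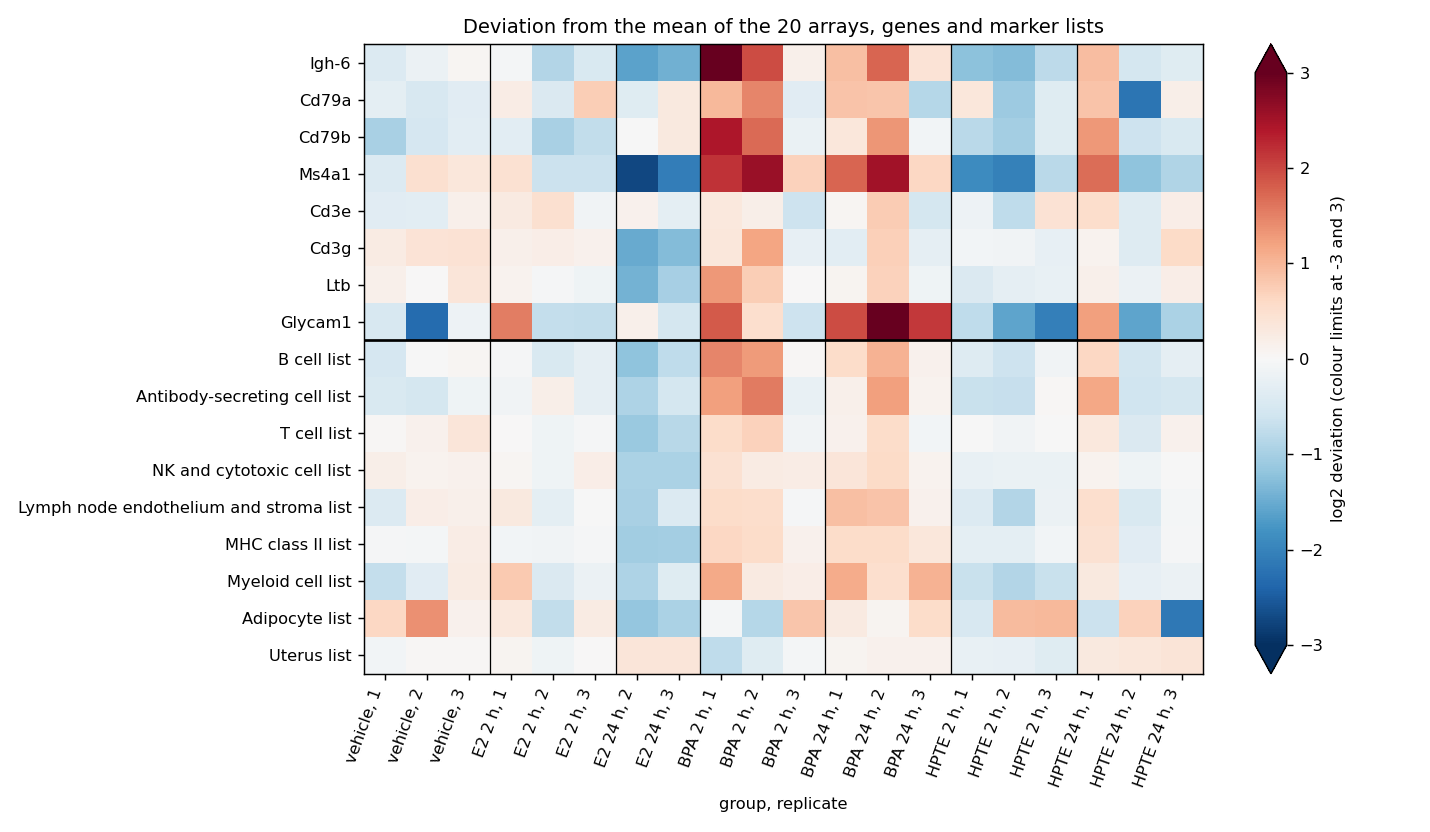
Log2 deviation of each gene (rows above the thick line) and of the mean of each marker list (rows below it) from its mean over the 20 arrays (columns, by group and replicate). Red is above and blue below the mean. All 8 genes were above their means on 4 arrays: replicates 1 and 2 of BPA 2 h, the second of BPA 24 h and the first of HPTE 24 h.

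The 8 genes varied together from array to array within groups. All 8 were above their 20-array means on 4 arrays from 3 slides, namely replicates 1 and 2 of BPA 2 h, the second of BPA 24 h and the first of HPTE 24 h. All 8 were below on HPTE 2 h replicate 2 and HPTE 24 h replicate 2, and HPTE 24 h replicate 2 was the lowest of its group for all 8. Over deviations from group means the 28 pairs of genes had a median Pearson r of 0.63 (0.28 to 0.98), and 25 of 28 exceeded 0.5. Igh-6 and Cd79b had the highest value, 0.98, and Cd3g and Glycam1 the lowest, 0.28. Over the 20 arrays without centring, the median was 0.56 (0.15 to 0.93). These correlations describe 20 arrays that share groups and slides. Within each group every uterus lay on a different slide, so differences between uteri and between slides cannot be told apart there. Slide 1 held the lowest mean deviation of E2 2 h (-0.38), BPA 2 h (-0.15) and HPTE 2 h (-1.02), but not that of vehicle. Slide 6, the only one of scan day 2, held HPTE 24 h replicate 2 and BPA 24 h replicate 3, the latter lowest of its group for 6 members.

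The spread within groups was large for most members. The pooled within-group SD was 1.09 for Glycam1, 0.93 for Ms4a1, 0.91 for Cd79a, 0.77 for Cd79b and 0.74 for Igh-6. It was 0.47 for Cd3e, 0.41 for Cd3g and 0.34 for Ltb, against a median of 0.18 over all tested probes. Every member exceeded at least 77.8% of tested probes. Leaving out vehicle and BPA 24 h, the 5 remaining groups differed for 5 of 8 members by the moderated F test, where 76.7% of all tested probes passed. Ltb had the smallest adjusted p (0.000564), followed by Igh-6 (0.00128), Ms4a1 (0.00130), Cd3g (0.00275) and Cd79b (0.0311). Glycam1, Cd79a and Cd3e did not pass (0.253, 0.560 and 0.864), and Glycam1 was among the tested probes only through BPA 24 h.

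Genes whose levels most resembled each profile were sought among all named genes over the 20 arrays. Those like the mean of the 4 B cell members included Tnfrsf13c, the BAFF receptor of B cells (r = 0.963), the B cell coactivator Pou2af1 (0.950) and Marco, a scavenger receptor of macrophages (0.945). Most like the mean of Cd3e and Cd3g were the T cell receptor segment Tcrb-V13 (0.903), Mcf2l (0.883), Ptprcap, a CD45-associated protein (0.864), Cd3d (0.861) and Gpr162 (0.851). Ltb was most like Cxcr3, a chemokine receptor of T and NK cells (0.966), Traf3ip3 (0.964), Fcrl1 of B cells (0.945), the chemokine Ccl5 (0.939) and Hcst, a signalling adaptor of NK cells (0.938). Glycam1 was most like Mcoln2 (0.806), the cytokine receptor chain Csf2rb1 (0.802), Lrrc33 (0.795), Pilra (0.784) and the myeloid kinase Fgr (0.784). The median r over all tested probes lay between -0.01 and 0.09 for these profiles.

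Lists of marker and pathway genes were read on the same arrays. In E2 24 h against vehicle, 15 of 20 T cell genes were lower and 1 higher, where 37.6% of all tested probes were lower and 26.3% higher. The largest falls were in Il7r, the interleukin 7 receptor (-2.23), and Lef1, a T cell transcription factor (-1.96), and the gene that rose was Cd8b1 (0.91). Of 10 genes of T cell receptor signalling 7 were lower, led by Cd3d (-1.92) and Cd247 (-1.84), which encode further chains of the CD3 complex. Of 12 NK and cytotoxic genes 9 were lower, led by the transcription factor Eomes (-1.54) and the receptor Klrb1c (-1.53). All 7 MHC class II genes were lower, led by H2-Eb1 (-1.39) and the invariant chain Cd74 (-1.27). The median differences of these 4 lists were -1.35, -1.23, -1.16 and -1.11, beside -0.15 over all tested probes. Leaving out any array of either group, 10 to 15 T cell, 9 to 10 NK and 7 MHC class II genes were called lower.

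Of 18 B cell genes, 9 were lower and 0 higher in E2 24 h by limma at an adjusted p under 0.05, led by Cxcr5, a homing receptor (-2.00), and Fcrla (-1.80), with a median of -1.03. The count was 3 without E2 24 h replicate 2, and 4 without E2 24 h replicate 3 or vehicle replicate 2. Of 10 genes of B cell receptor signalling 0 passed by limma (median -0.02), and 1 was below 0.05 without adjustment. Of 9 antibody-secreting cell genes Prdm1 fell (-1.79) while Sdc1 (0.63) and Xbp1 (0.70), which epithelial cells also express, rose. Of 9 genes of lymph node endothelium and stroma 4 were lower: the homing receptor Ccr7 (-1.66), the chemokine Ccl19 (-1.44), and the glycosyltransferases Fut7 (-1.25) and Gcnt1 (-0.61). Of 12 myeloid genes Itgax (-1.44) and Fcgr3 (-1.07) were lower, and of 8 pan-leukocyte genes Ptprc, encoding CD45 (-1.06).

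Of 11 genes of the lymphotoxin pathway besides Ltb, 3 were lower and 4 higher in E2 24 h, near the shares of 37.6% and 26.3% among all tested probes. The partner of Ltb, Lta (-1.67), the related ligand Tnfsf14 (-1.31) and the transcription factor Relb were lower. Among the 4 genes that were higher were the receptor Ltbr (0.50) and the adaptor Traf3 (0.48), the others being Traf2 and Tnfrsf1a. Tnf, Tnfrsf14, Map3k14 and Nfkb2 did not pass. After BPA for 2 h 7 of 11 pathway genes were higher and 0 lower by limma, where 19.3% of all tested probes were higher, led by the cytokine Tnf (1.51) and the kinase Map3k14 (0.76).

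**Figure D4:**
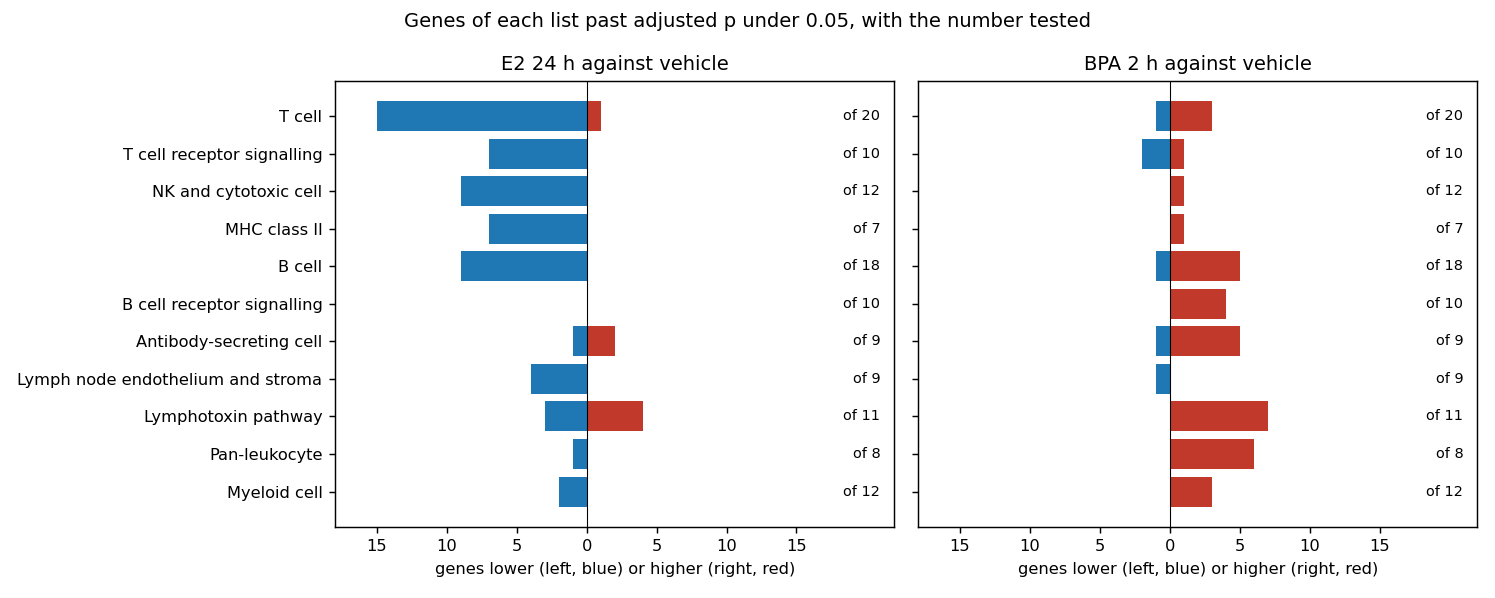
Number of genes of each list called lower (left, blue) or higher (right, red) by limma at an adjusted p under 0.05, with the number tested, in E2 24 h and BPA 2 h against vehicle. The T cell list had 15 of 20 genes lower in E2 24 h, and the B cell list 5 of 18 higher in BPA 2 h.

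In BPA 2 h against vehicle, where 19.3% of tested probes were higher and 30.2% lower, 5 of 18 B cell genes were higher, led by Cd72 (2.52) and Pou2af1 (2.49), and Ebf1 was lower (-0.30). B cell receptor signalling had 4 of 10 higher: the kinase Syk (1.72), Vav1 (1.64), the adaptor Blnk (1.5) and Plcg2 (0.82). Of 9 antibody-secreting cell genes 5 were higher, led by Mzb1 (3.90) and Tnfrsf13b (1.73), and Prdm1 was lower (-1.49). Of 8 pan-leukocyte genes 6 were higher, led by Rac2 (1.91) and Vav1, the latter also in the B cell receptor list. Of 12 myeloid genes 3 were higher, Clec4e (3.70), Emr1 (1.94) and Csf1r (0.91). T cell genes gave 3 higher, Cd2 (0.76), Tcf7 (0.45) and Cd8b1 (0.30), and 1 lower, Lef1 (-0.63), of 20. Signalling of the T cell receptor gave Lcp2 higher (1.71) and Prkcq (-0.49) and Fyn (-0.29) lower, of 10. H2-Aa (0.51, of 7 MHC class II genes) and Nkg7 (0.35, of 12 NK genes) were higher, and Gcnt1 (-1.37, of 9 lymph node genes) was lower. These counts turned on single arrays, each of 1 uterus. Without BPA 2 h replicate 3 the B cell list had 13 genes higher and the receptor signalling list 9, without replicate 1 each had 2, and without replicate 2 they had 3 and 4. Without vehicle replicate 1 each had 2, and without vehicle replicate 2 they had 4 and 2. The pan-leukocyte count was 0 without BPA 2 h replicate 1 or vehicle replicate 1 or 2, and 2 without vehicle replicate 3.

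The mean of the B cell list followed that of the 4 B cell members closely (r = 0.97 over 20 arrays), ahead of the antibody-secreting (0.92) and lymph node (0.89) lists. The summed level of its genes, in multiples of the array's 75th percentile, ran from 10.2 to 11.3 in vehicle, 11.1 to 14.0 in E2 2 h, 16.6 to 17.3 in E2 24 h and 14.2 to 68.1 in BPA 2 h. It was 16.9 to 22.7 in BPA 24 h, 17.4 to 21.95 in HPTE 2 h and 18.1 to 26.2 in HPTE 24 h. Most of this sum came from Blnk, whose mean log2 level was 3.03 in vehicle and 3.79 in E2 24 h (difference 0.77, limma, adjusted p = 0.0842), so the sum did not fall where 9 other genes of the list were lower. The T cell list summed to 6.35 to 7.25 in vehicle and 3.84 to 3.94 in E2 24 h, and Ltb followed its mean (r = 0.93). The lymph node list summed to 4.46 to 4.67 in vehicle, 2.17 to 3.47 in BPA 2 h and 4.80 to 5.77 in BPA 24 h. Its mean log2 deviation was -0.02 in vehicle and 0.35 in BPA 2 h, the opposite order, since Gcnt1 (-1.37 in BPA 2 h) weighs heavily in the sum. All of its genes except Madcam1 were above background on all 20 arrays.

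Markers of other tissues were read beside the lymphocyte genes. The adipocyte list had an r of -0.09 with the B cell members and 0.12 with Ltb. Its mean deviation in E2 24 h (-1.06) was close to that of the T cell list (-0.97), and 5 of 9 adipocyte genes were lower, Cidea (-2.33), Plin1 (-1.95), Adipoq (-1.87), Retn (-1.86) and Fabp4 (-1.83), with summed levels of 18.3 to 23.1 against 45.7 to 104.2 in vehicle. The erythroid list (r = -0.03) had Slc4a1 lower (-1.27) of 4 genes, and the mammary list (r = 0.28) had 0 of 2 tested genes past the threshold by limma, with or without adjustment. Of 12 uterine genes 5 were higher, led by Krt8 (1.81) and Des (1.23), and 3 lower, Msx1 (-0.77), Esr1 (-0.71) and Hoxd10. After BPA for 2 h, 1 uterine gene was higher, Pgr (1.60), and 7 were lower, led by Hoxa10 (-1.44) and Hoxa11 (-1.40). The uterine list had an r of -0.35 with the B cell members and -0.54 with Ltb, and its mean deviation was -0.75, -0.37 and -0.06 on BPA 2 h replicates 1, 2 and 3. Over deviations from group means, r with the B cell members was -0.32 (adipocyte), -0.41 (erythroid), 0.46 (mammary) and -0.46 (uterine). In the same order it was -0.37, -0.41, 0.16 and -0.66 with Ltb. With the mean of Cd3e and Cd3g it was -0.65, -0.35, 0.34 and -0.35. The part of fat, blood or uterine cells in the lymphocyte values was not tested.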

How the data were processed

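From every uterus, 500 ng total RNA was converted to Cy3-labelled cRNA for a 1-colour Agilent mouse array. The authors extracted intensity with Agilent Feature Extraction 9.5, per the labels. The deposited intensity is background subtracted within the array and not scaled between arrays. Deposited flags, of other type per the file headers, mark control, outlying, saturated and well-above-background spots. The deposited value table held the same intensities (relative tolerance 1e-06) and was used only for that comparison. The unscaled alternative took the intensities of the array files without scaling. Each array had 45018 spots, of which 1639 controls and 46 to 134 outlying spots were left out. Spots of a probe were averaged on the log2 scale, and each array's 75th percentile was subtracted.

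Probes entered the test if all arrays of some group read them well above background, if they were missing on at most 2 arrays and if every group had a value (32456 of 41174). A means model over 7 groups was fitted with limma 3.58.1 in R 4.3.3 (lmFit, eBayes). The 11 contrasts not involving BPA 24 h were two-sided, with Benjamini-Hochberg adjustment over all tested probes of a contrast and a threshold of 0.05. The fit was tested on simulated data. The study's own test used other software (Rosetta Resolver). Where all arrays of a group missed that flag, only a lower bound of the fold is given, from each array's dimmest flagged probe (or the probe itself if higher). The other group is taken as read, so the bound is not strict where that group also holds an unflagged array, as BPA 2 h does for Glycam1.

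Members and lists were chosen with earlier results of these data known. The text names the members, the 5 genes with the highest r to each of 4 profiles (some are not reported here), and, of the lists, called genes with the largest changes (up to 2 a direction, all where 5 or fewer were called) in the E2 24 h and BPA 2 h contrasts with vehicle. Relb, Traf2, Tnfrsf1a, Tnf, Tnfrsf14, Map3k14, Nfkb2 and Hoxd10 where named beside them complete a list. Alternatives were other scalings and background correction, no filter, blocks for slide, scan day and replicate number, fits of the compared groups alone, other probes and leaving out each array. Positions are on mm7 per the file headers. Current symbols and promoter windows came from RefSeq (GRCm38.p6, 16625 of 17388 accessions matched).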

Additional observations from a re-analysis of the deposited data

Results flagged for a closer look

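HPTE and E2 differed in how 4 of the 8 members changed with time, by the interaction term of the limma fit, in which 25.4% of tested probes were called higher. The difference, HPTE change minus E2 change on the log2 scale, was 3.57 ± 1.07 for Ms4a1 (adjusted p = 0.0128), 2.18 ± 0.85 for Igh-6 (adjusted p = 0.0482), 1.82 ± 0.48 for Cd3g (adjusted p = 0.00582) and 1.54 ± 0.40 for Ltb (adjusted p = 0.00502). For Cd3g, levels were -1.75, -1.76 and -1.91 at 2 h and -1.54, -2.05 and -1.07 at 24 h after HPTE, and -1.50, -1.45 and -1.53 at 2 h and -3.17 and -2.97 at 24 h after E2. For Ltb they were 1.59, 1.75 and 1.79 and then 2.18, 1.83 and 2.21 after HPTE, and 2.13, 1.98 and 1.89 and then 0.60 and 1.02 after E2. For Ms4a1 they were -4.35, -4.49 and -3.28 and then -0.77, -3.67 and -3.35 after HPTE, and -1.99, -3.10 and -3.09 and then -5.18 and -4.52 after E2. For Igh-6 they were 0.33, 0.25 and 0.77 and then 2.49, 1.03 and 1.19 after HPTE, and 1.51, 0.67 and 1.10 and then -0.06 and 0.12 after E2. HPTE 24 h replicate 1 was the highest of its group for Ms4a1 and Igh-6, and without it the Igh-6 difference was 1.71 (adjusted p = 0.117) and the Ms4a1 difference 2.65 (adjusted p = 0.0231). In fits chosen after seeing the data, the Igh-6 call was lost on leaving out 14 of the 20 arrays, and the Ms4a1 call without E2 24 h replicate 2 (3.24, adjusted p = 0.0536), while Cd3g and Ltb kept theirs without each of the 20.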

How the results depend on the processing

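Counts of members past the threshold moved with the fit mostly where BPA at 2 h was involved, and E2 24 h rests on 2 arrays. For BPA 2 h against vehicle the count, 2 as reported, was 4 with quantile normalization and with normexp, 0 where only the compared groups were fitted and 1 with the third Igh-6 probe, and 0 to 4 leaving out each array. For BPA 2 h against E2 2 h (2) it was 4 without scaling, 0 with only the compared groups, 1 with either other Igh-6 probe and 0 to 4 leaving out each array. For HPTE 2 h against BPA 2 h (1) it was 0 with quantile normalization, no scaling, no filter, only the compared groups and either other Igh-6 probe, 2 with slide or scan day as a block and 0 to 4 leaving out each array. For HPTE 2 h against vehicle (0) it was 1 with slide or scan day as a block, 4 with only the compared groups and 0 to 1 leaving out each array. For HPTE 24 h against HPTE 2 h (0) it was 1 with scan day as a block and 0 to 1 leaving out each array. With only the compared groups, E2 24 h had 5 members past the threshold against vehicle and 5 against E2 2 h (3 each as reported). The median member difference of BPA 24 h was 1.41 against vehicle and 0.067 against BPA 2 h with scan day as a block (0.88 and -0.40 as reported), and 0.83 against E2 24 h with normexp (1.44). With the third Igh-6 probe the HPTE 2 h difference from BPA 2 h reversed to 0.075. What that probe reads was not determined, so neither this value nor the counts with it are a check on the mu RNA. Leaving out each array of the compared groups, chosen after seeing the data, E2 24 h had 10 to 15 T cell, 9 to 10 NK, 7 MHC class II and 3 to 10 B cell genes lower. BPA 2 h had 2 to 13 B cell, 2 to 9 B cell receptor signalling, 0 to 8 pan-leukocyte and 5 to 8 lymphotoxin pathway genes higher. The cause of these shifts was not tested.

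Replicate numbers did not pair the arrays: deviations from group means correlated at a median r of -0.05 between arrays of the same number and -0.01 between others. Arrays of the same slide did so at 0.107, and those of different slides at -0.033. With the replicate block, HPTE 2 h against BPA 2 h had 0 members past the threshold, and Ms4a1 in E2 24 h lost its calls against E2 2 h (adjusted p = 0.0587) and HPTE 24 h (adjusted p = 0.0512). For Glycam1, signal near background limits every comparison, that of BPA 24 h with vehicle included. Cd79a was also near background, which limits its comparisons too.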
